A study of Rattus norvegicus with 6 samples.

Results

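Polycomb repressive complex 2 (PRC2) was examined through 10 genes of its core and of its accessory subunits, taken by symbol from a count table of 40456 genes, and all 10 were found there. The measurements were poly-A RNA sequencing libraries of H9c2 (2-1), an established rat cardiomyoblast line of wild-type genotype. All cells were kept for 5 days in differentiation medium with 1 µM retinoic acid and 1% serum and then received, for 24 h before harvest, a locked nucleic acid gapmer at 25 nM. A gapmer is an antisense strand with a DNA centre through which RNase H cleaves the matching RNA. The 3 control libraries received a negative control gapmer, and the 3 knockdown libraries one that targets Tug1, a long non-coding RNA. Each gene's level rests on 1 gapmer sequence per group in 1 cell line, and the labels do not say whether libraries of a group came from separate cultures, so p-values measure only the spread between these libraries. The 2 oligonucleotides are shown because, per the labels, they are what differs between the groups.
Tug1 gapmer: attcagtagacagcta
Negative control gapmer: gctcccttcaatccaa

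PRC2 places methyl groups on lysine K27 of histone H3, a mark of silenced developmental genes. EZH2 or its relative EZH1 carries the catalytic domain, SUZ12 is the scaffold, EED binds the finished mark and stimulates the enzyme, and RBBP4 or RBBP7 contacts histones. Accessory subunits steer the core to chromatin: MTF2, PHF19 and PHF1 are Polycomb-like proteins that bind CpG-rich DNA and define one form of the complex, while JARID2 and AEBP2 define the other. EZH2 is typical of dividing cells and EZH1 of resting ones, and EZH2 is known to keep muscle genes silent in myoblasts. Tug1 is among the long non-coding RNAs that have been reported to associate with PRC2.

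The promoters of 4 members are shown, those of the 2 members that fell furthest and of the 2 that rose furthest. They are RefSeq sequences of the GRCr8 assembly, from 250 bases before to 50 bases after the start site in that table, written 5′ to 3′ along the gene. Capitals mark an E2F-type word, searched on both strands as TTTCCCGC, TTTCGCGC, TTTGCCGC or TTTGGCGC. E2F factors are known to drive genes of S phase, Ezh2 among them.
Ezh2 promoter, chr4:77687134-77687433, minus strand: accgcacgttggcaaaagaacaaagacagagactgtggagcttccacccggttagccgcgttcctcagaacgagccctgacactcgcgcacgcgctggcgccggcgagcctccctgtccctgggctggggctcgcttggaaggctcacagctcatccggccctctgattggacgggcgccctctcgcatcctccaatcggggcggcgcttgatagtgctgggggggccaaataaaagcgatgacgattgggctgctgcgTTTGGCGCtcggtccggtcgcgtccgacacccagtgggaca
Suz12 promoter, chr10:65464719-65465018, plus strand: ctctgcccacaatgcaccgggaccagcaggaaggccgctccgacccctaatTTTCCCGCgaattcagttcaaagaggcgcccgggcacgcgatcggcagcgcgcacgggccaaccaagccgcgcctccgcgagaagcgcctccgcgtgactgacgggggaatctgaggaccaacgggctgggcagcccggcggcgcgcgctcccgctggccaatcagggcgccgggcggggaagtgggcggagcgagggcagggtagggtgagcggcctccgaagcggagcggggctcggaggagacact
Mtf2 promoter, chr14:1828365-1828664, minus strand: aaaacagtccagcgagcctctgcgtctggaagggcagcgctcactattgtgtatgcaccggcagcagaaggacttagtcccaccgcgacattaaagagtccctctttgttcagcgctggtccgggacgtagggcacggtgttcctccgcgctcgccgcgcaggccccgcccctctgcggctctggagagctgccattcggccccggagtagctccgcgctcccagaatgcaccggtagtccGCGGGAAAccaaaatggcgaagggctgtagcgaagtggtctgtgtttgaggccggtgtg
Jarid2 promoter, chr17:20161921-20162220, minus strand: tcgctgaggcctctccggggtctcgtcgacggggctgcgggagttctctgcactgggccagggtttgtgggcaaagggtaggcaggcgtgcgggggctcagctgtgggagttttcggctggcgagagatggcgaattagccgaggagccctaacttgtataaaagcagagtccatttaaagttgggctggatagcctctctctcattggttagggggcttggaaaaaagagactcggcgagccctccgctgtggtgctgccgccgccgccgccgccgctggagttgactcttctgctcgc

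A promoter entry was present for 9 of the 10 members, Ezh1 being the exception. An E2F-type word stood in 4 of those 9, in Ezh2, Suz12, Mtf2 and Phf19, against 2.14% of 33469 promoter windows of the same length. Ezh2 and Suz12 fell while Mtf2 rose, so the word was found with both directions. The CCAAT box, searched on both strands as CCAAT, stood in 6 of the 9 windows, against 37.5% of all windows. Ezh2 held 3 of these boxes. Both shares were taken over all promoter windows, not only those of tested genes, and without matching for base composition. They therefore do not show an enrichment. A match of letters is a description of the window and not a measured binding site.

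The libraries held 12978548 to 13544337 counts each. Tug1 had 713, 672 and 718 counts in the control libraries and 164, 152 and 165 after the Tug1 gapmer, or 22.0% of the control level. Log2 ratios between 2 libraries had an SD of 0.281 to 0.305 in the same group and of 0.641 to 0.67 across groups. Rn28s, a ribosomal RNA that poly-A selection is meant to leave behind, ran from 25 to 70 counts with the control gapmer and from 221 to 524 with the Tug1 gapmer. The labels call the cells cardiomyocytes, but of 14 cardiac muscle markers only 4 had enough counts to be tested: Myh6 and Nkx2-5 had at most 1 count in any library, Myh7 at most 2, Ryr2 at most 3, and Nppb had 0. Tnnt2, which skeletal myoblasts also use and which is named after its value was seen, stood at 349 ± 18.0 CPM (counts scaled to library size, SD, n = 3) in controls, and the skeletal factor Myog, likewise named afterwards, at 275 ± 4.39 CPM. Of the 4 tested cardiac muscle markers 3, Tnnt2 among them, rose and 0 fell by the test given below. That is a changed share of 75%, against 61.7% of all tested genes. Of 12 skeletal muscle markers, 11 were tested, 9 rose and 1 fell. This is a changed share of 90.9%, against 61.7% of all tested genes by the test given below. The summed level of these markers was 936 to 944 CPM in control and 1369 to 1455 CPM in knockdown libraries. Of 8 fibroblast markers, 7 were tested: Col3a1 and Dcn rose by 0.47 and 0.57, while Col1a1, Thy1 and Postn fell by 0.23, 0.40 and 0.47 on the log2 scale, all 5 named after their values were seen. The fibroblast list as a whole summed to 43814 to 45162 CPM in control and 41192 to 43997 CPM in knockdown libraries, so the sum does not show these opposite changes. Markers of endothelium and macrophages, 8 names, summed to 10.9 to 12.2 CPM in control and 15.8 to 17.7 CPM in knockdown libraries. Ptprc and Adgre1 had 0 counts. Only 2 of the 8 had enough counts to be tested, and 1 of them rose and 0 fell. This is a changed share of 50%, against 61.7% of all tested genes. For both, every knockdown library lay above every control library. Among all tested genes the groups did not overlap for 65.6%, in either direction. The part of these shifts in the values of the PRC2 genes was not tested, and in bulk libraries fewer cells of a type and less RNA per cell cannot be told apart.

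Of the 10 members, 8 changed after the Tug1 gapmer (edgeR's quasi-likelihood test, Benjamini-Hochberg adjusted p under 0.05). All core subunits except Ezh1 were lower, 5 genes in all: Suz12, Ezh2, Rbbp4, Eed and Rbbp7. Ezh1 and the accessory subunits Jarid2 and Mtf2, 3 genes, were higher. The accessory subunits Aebp2 and Phf19 did not pass the test. Of all 14216 tested genes, 61.7% were called, 30.8% higher and 30.9% lower, so 8 of 10 is set against a background in which most genes passed. The median log2 fold change was -0.26 over the members and 0.00 over all tested genes; without knockdown replicate 2 the members' median was -0.13. Control and knockdown libraries did not overlap for those 8 members, as for 65.6% of tested genes. Levels are CPM on edgeR's TMM scale throughout, and since transcript lengths were not available, levels are compared between libraries and not between genes.

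**Figure D1:**
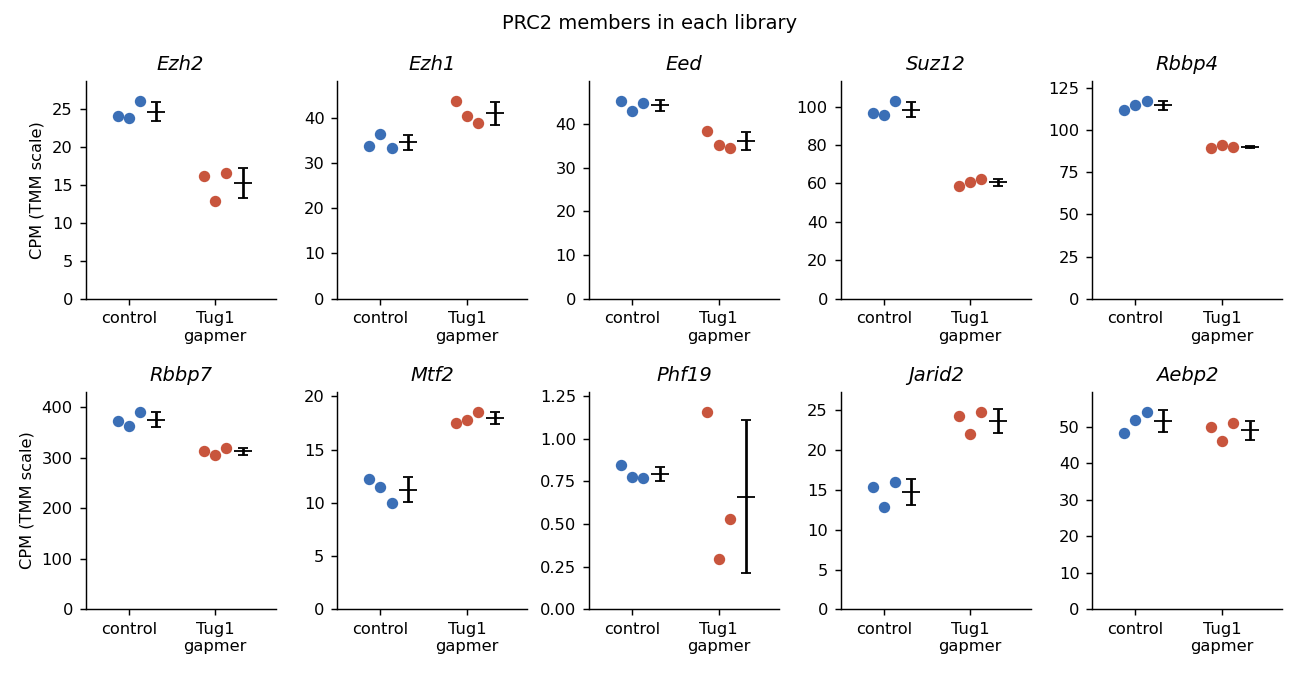
CPM of each member in each library (y axis, from 0), with 3 points per group and the mean ± SD beside them. Control and knockdown points are apart for 8 members and overlap for Aebp2 and Phf19.

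The catalytic subunits moved in opposite directions. Ezh2, the main H3K27 methyltransferase of dividing cells, had 24.1, 23.9 and 26.1 CPM in control replicates 1 to 3 and 16.2, 12.9 and 16.6 CPM in knockdown replicates 1 to 3. The highest knockdown library lay well below the lowest control library. Its mean level went down from 24.7 ± 1.24 to 15.2 ± 2.00 CPM (SD, n = 3), 61.7% of control. Ezh2 fell by 0.70 on the log2 scale (SE 0.0971; adjusted p 1.56e-06 by edgeR), and 10.2% of tested genes had a lower log2 fold change.

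Ezh1, the weaker methyltransferase that persists in resting cells, had 33.8, 36.5 and 33.2 CPM in controls and 43.7, 40.4 and 38.7 CPM after knockdown. All knockdown libraries were above all controls, by a small margin in knockdown replicate 3. The log2 fold change was 0.25 (SE 0.0712; adjusted p 0.00445 by edgeR). In each library the counts of the 2 genes can be set against each other without any scaling, as a ratio to compare between groups. It is a ratio of RNA counts, and protein was not measured. The log2 ratio of Ezh2 to Ezh1 counts was -0.48 ± 0.131 in controls and -1.43 ± 0.210 after knockdown (SD, n = 3), so the ratio after knockdown was 0.518 times that in controls. Every knockdown library had a lower ratio than every control library. A two-sided exact permutation test gave p = 0.1, the smallest that 3 against 3 libraries allow, and 0.133 after adjustment over the 4 ratios computed.

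Suz12, the scaffold on which the core assembles, had 96.6, 95.6 and 103 CPM in controls and 58.9, 60.7 and 62.4 CPM after knockdown. The groups lay far apart, with little spread in either. Suz12 fell from 98.4 ± 3.98 to 60.6 ± 1.76 CPM (SD, n = 3), 61.6% of control, or by 0.70 on the log2 scale (SE 0.0558; adjusted p 2.55e-10 by edgeR). Its fall and that of Ezh2 had nearly the same size, and 10.1% of tested genes had a lower log2 fold change than Suz12.

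Eed, the reader of the methyl mark, had 45.3, 43.0 and 44.7 CPM in controls and 38.3, 35.3 and 34.5 CPM after knockdown. All 3 knockdown libraries were below the controls, at 81.3% of the control mean. Eed fell by 0.30 on the log2 scale (SE 0.0676; adjusted p 0.000559 by edgeR). The 95% intervals of its fold change (-0.44 to -0.16) and of that of Suz12 (-0.81 to -0.58) did not overlap.

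The histone-binding subunits Rbbp4 and Rbbp7, which also serve in other chromatin complexes, fell by less than Ezh2 and Suz12. Rbbp4 had 112, 115 and 117 CPM in controls and 89.6, 91.0 and 89.9 CPM after knockdown. It fell by 0.35 on the log2 scale (SE 0.0509; adjusted p 2.83e-06 by edgeR), with no overlap. Rbbp7 had 373, 363 and 392 CPM in controls and 314, 306 and 319 CPM after knockdown. It fell by 0.26 (SE 0.0446; adjusted p 2.02e-05 by edgeR), again with no overlap. The log2 ratio of Rbbp4 to Rbbp7 counts was -1.71 ± 0.0458 in controls and -1.79 ± 0.0423 after knockdown (SD, n = 3), a ratio 0.943 times that in controls (two-sided exact permutation test, p = 0.1, adjusted 0.133). RefSeq's gene table names 4 pseudogenes and 1 like gene of Rbbp4, 1 like gene of Jarid2, and 1 pseudogene each of Rbbp7, Mtf2 and Aebp2. How reads shared with such copies were counted was not given in the sources used here, so these values carry that uncertainty.

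**Figure D2:**
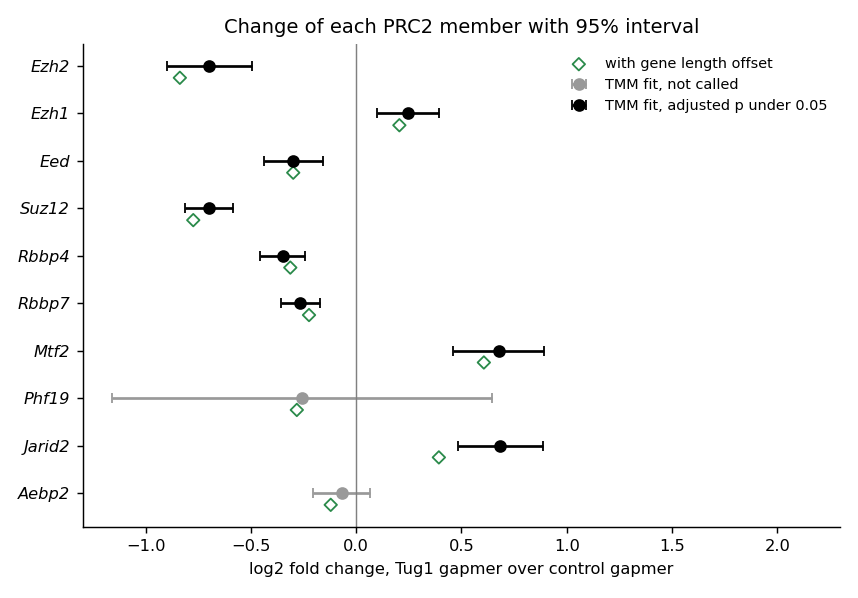
Log2 fold change of each member (x axis, Tug1 gapmer over control gapmer) with its 95% interval from the edgeR fit, black where called and grey where not, and open diamonds for the fit with a gene length offset. Core members except Ezh1 lie left of 0, and Jarid2 moves most with the offset, from 0.68 to 0.39.

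Of the 4 accessory members, Mtf2 and Jarid2 rose and Aebp2 and Phf19 did not pass the test. Mtf2, a Polycomb-like protein, had 12.3, 11.5 and 9.95 CPM in controls and 17.5, 17.8 and 18.6 CPM after knockdown. The knockdown libraries were all higher and close together. Mtf2 rose by a log2 fold change of 0.68 (SE 0.104; adjusted p 5.87e-06 by edgeR), to 160% of the control mean.

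Jarid2, the subunit that links PRC2 to nucleosomes carrying the mark of PRC1, had 15.3, 12.8 and 16.0 CPM in controls and 24.3, 22.0 and 24.8 CPM after knockdown. The groups did not overlap. It rose by a log2 fold change of 0.68 (SE 0.0969; adjusted p 1.99e-06 by edgeR), to 161% of control. Jarid2 is a long gene, with a genomic span longer than that of 94.7% of tested genes. In these libraries the log2 fold change rose with span, from a median of -0.21 in the shortest decile of tested genes to 0.33 in the longest. With an offset that removes this trend, Jarid2 rose by 0.39 (SE 0.0933; adjusted p 0.000903 by edgeR), the lowest value among its alternatives, while Mtf2 was at 0.61 and Ezh2 and Suz12 at -0.84 and -0.77.

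The log2 ratio of Jarid2 to Mtf2 counts, which sets a subunit of one form against a subunit of the other, was 0.39 ± 0.268 in controls and 0.40 ± 0.0827 after knockdown (SD, n = 3). The difference of 0.01 was far below the spread of the control libraries (two-sided exact permutation test, p = 1, adjusted 1). The ratio was taken from counts without the length offset. With that offset Jarid2 rose by 0.39 and Mtf2 by 0.61, so the near-zero difference holds only for uncorrected counts.

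Aebp2, the zinc finger partner of JARID2, had 48.2, 52.0 and 54.2 CPM in controls and 49.9, 46.2 and 51.2 CPM after knockdown. These values overlapped. The log2 fold change was -0.07, with a 95% interval from -0.20 to 0.07 (edgeR adjusted p 0.379), so its interval excludes a rise of the size seen for Jarid2 or Mtf2.

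Phf19, the second Polycomb-like member, was near the limit of detection with 11, 10 and 10 counts in controls and 16, 4 and 7 counts after knockdown. Its log2 fold change of -0.26 had a 95% interval from -1.16 to 0.65 (edgeR adjusted p 0.63), and a difference was not detectable at this depth. The value was -0.94 without knockdown replicate 1 and 0.09 without knockdown replicate 2. The log2 ratio of Mtf2 to Phf19 counts rose from 3.75 ± 0.109 to 4.89 ± 0.941 (SD, n = 3; two-sided exact permutation test, p = 0.1, adjusted 0.133), and its increase of 1.14 became 0.71 without knockdown replicate 2, the library with 4 Phf19 counts.

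**Figure D3:**
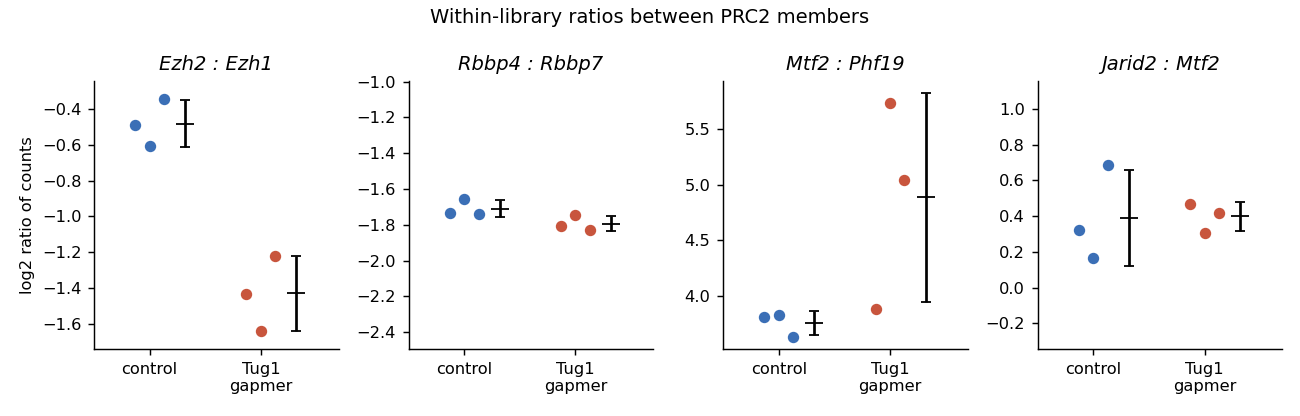
Log2 ratio of counts of 2 members within each library (y axis), 3 points per group with mean ± SD. Ezh2 relative to Ezh1 was lower in every knockdown library, and Jarid2 relative to Mtf2 overlapped between groups.

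Further PRC2 partners were taken from a list of 5 names, of which 4 were tested and Ezhip had 0 counts. Epop, a partner of the Polycomb-like form that links it to elongin, had 8.90, 11.5 and 9.72 CPM in controls and 4.06, 2.88 and 2.95 CPM after knockdown. Every knockdown library was below every control library. Epop fell by 1.60 on the log2 scale (SE 0.167; adjusted p 1.96e-08 by edgeR). Phf1, the remaining Polycomb-like gene, fell by 0.47 (edgeR adjusted p 0.0307), a call that 7 of 13 alternatives did not keep, with -0.31 and an edgeR adjusted p of 0.167 without knockdown replicate 3, 0.115 without control replicate 2 and 0.0817 without control replicate 3. Lcor and Lcorl, whose loci encode PRC2-binding products, were higher by 0.21 and 0.30. With the length offset both lost the call, at 0.02 and 0.06, and Lcorl also without knockdown replicate 1, at 0.24 with an edgeR adjusted p of 0.0585.

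PRC1, the partner complex that ubiquitinates histone H2A and compacts chromatin, was read from 25 names, of which 23 were tested. Among these 6 rose and 10 fell, a called share of 69.6% against 61.7% of all tested genes. With the length offset 3 rose and 11 fell, and without control replicate 1, 3 rose and 10 fell. The median log2 fold change was -0.14. Cbx2, the chromodomain subunit that binds the PRC2 mark, had 23.9, 27.5 and 24.5 CPM in controls and 11.7, 11.3 and 11.8 CPM after knockdown. Knockdown libraries were all at less than the lowest control, and Cbx2 fell by 1.12 (SE 0.094; adjusted p 5.76e-10 by edgeR). Bmi1, a RING-finger partner, and Rnf2, the main ubiquitin ligase, fell by 0.59 and 0.46 (edgeR adjusted p 8.15e-09 and 6.53e-08). These 3 genes were named for the smallest p and all fell, while log2 fold changes in the list reached 0.67.

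Genes that oppose Polycomb marks were read from 2 further lists. The PR-DUB complex removes the ubiquitin placed by PRC1. Of 8 names, 7 were tested, 6 rose and 1, Asxl2 (-0.26, named after its value was seen), fell. All 7 were thus called, where 61.7% of all tested genes were. Over the 13 alternatives 5 to 7 were called. With the length offset 4 rose and 1 fell. Mbd5 went from 8.94 ± 0.458 to 23.9 ± 0.602 CPM (SD, n = 3) and so rose by 1.42 on the log2 scale (edgeR adjusted p 2.08e-11), and Mbd6 and Foxk2 rose by 0.57 and 0.56. Mbd5 has a span longer than that of 98.7% of tested genes, and was at 1.03 with the length offset.

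Both H3K27 demethylases were higher, Kdm6a by 0.30 (edgeR adjusted p 0.00398) and Kdm6b by 0.22 (edgeR adjusted p 0.00431). Of the acetyltransferases that place the competing mark on the same lysine, Crebbp was higher by 0.21, and Ep300, named after its value was seen, fell by 0.15 (edgeR adjusted p 0.0175). With the length offset only Kdm6b and Ep300 kept their calls: Kdm6a was at 0.05 and Crebbp at -0.02. Crebbp was also not called without control replicate 1 (0.17, edgeR adjusted p 0.072). Ep300 was not called with library totals in place of TMM (-0.10), without control replicate 2 (-0.11, edgeR adjusted p 0.0972) or without knockdown replicate 1 (-0.11, edgeR adjusted p 0.0924).

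**Figure D4:**
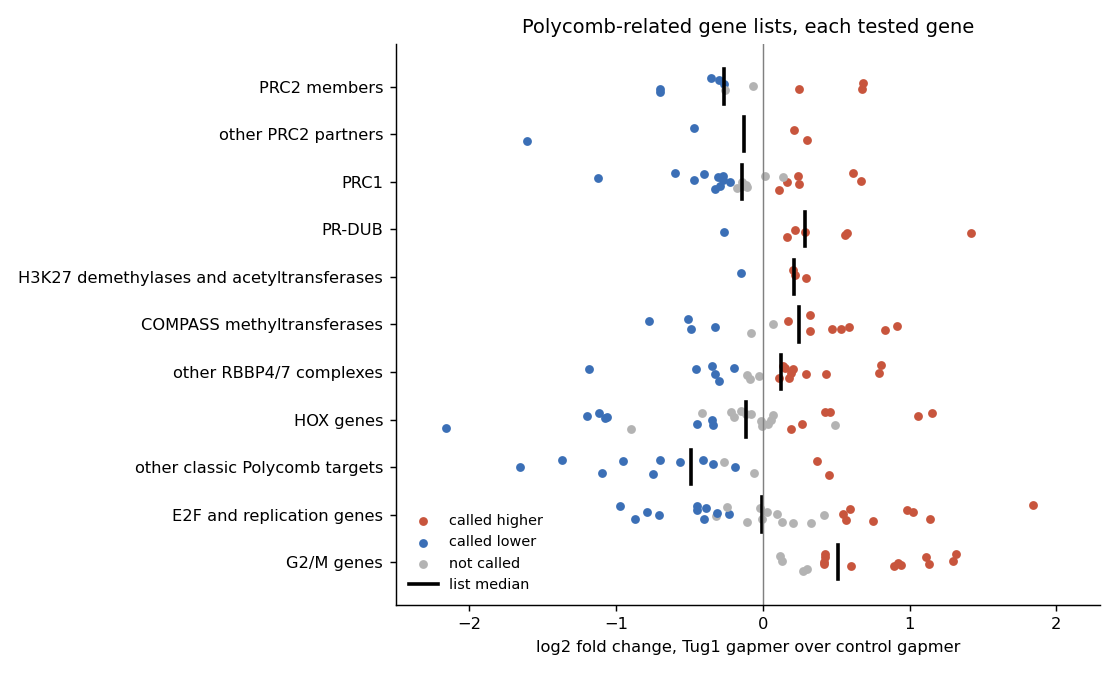
Log2 fold change of each tested gene (points) in 11 lists, red where called higher, blue where called lower and grey where not called, with a bar at each list's median. Chd5, with 1 to 4 counts in controls, is not drawn but is included in the median of its list. List medians run from -0.49 for classic Polycomb targets to 0.51 for G2/M genes. The COMPASS list also includes H3K4 demethylases.

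HOX genes, the classic genes kept silent by Polycomb outside their body region, were read from 39 names. Of these 27 were tested, 6 rose, 8 fell and 13 did not pass, a called share of 51.9% against 61.7% of all tested genes. Only 3 rose by DESeq2, with 7 lower, and 3 without control replicate 1, with 9 lower. The median log2 fold change was -0.11, and turned to 0.07 with the length offset. Hoxd13, which marks the most distal limb, had 65.0, 65.7 and 67.2 CPM in controls and 15.7, 13.2 and 15.5 CPM after knockdown. The knockdown libraries were all at less than the lowest control, and Hoxd13 fell by 2.16 on the log2 scale (SE 0.0757; adjusted p 3.4e-16 by edgeR), close to the -2.19 of Tug1 itself. Hoxd10 and Hoxa13 fell by 1.11 and 1.06 (edgeR adjusted p 3.69e-10 and 3.78e-08). Hoxa6 and Hoxd3, named after their values were seen, rose by 1.15 and 1.06 from 1.41 ± 0.193 and 1.65 ± 0.298 CPM (SD, n = 3). Grouped by paralogue number after the values were seen, 0 of 7 tested genes of groups 9 to 13 rose and 4 fell. Of 20 in groups 1 to 8, 6 rose and 4 fell. Among all tested genes 30.8% were higher and 30.9% lower. The difference between the sets of paralogue groups was not tested. At an unadjusted p under 0.05 in edgeR 1 of those 7, Hoxa9, was higher (log2 fold change 0.49, edgeR adjusted p 0.0613), and DESeq2 called 0 higher. Hoxa9, named after its value was seen, was called higher in 8 of 13 alternatives, among them the length offset (0.62, edgeR adjusted p 0.0210) and leaving out control replicate 2 (0.67), knockdown replicate 1 (0.64) or knockdown replicate 2 (0.60), so the count of 0 does not hold there. HOX loci hold antisense transcripts, and use of strand in counting was not given in the sources used here, so single HOX values are uncertain.

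**Figure D5:**
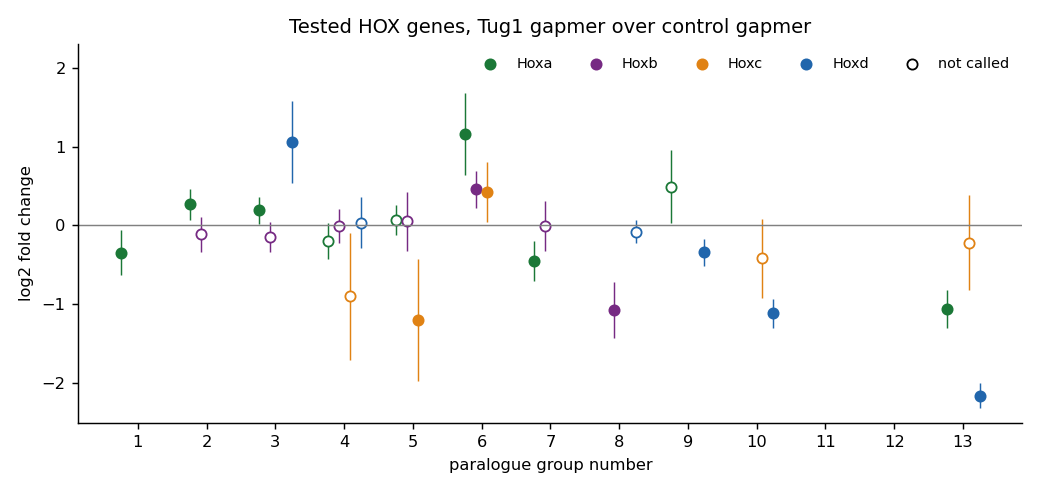
Log2 fold change (y axis) with 95% interval of each tested HOX gene by paralogue group (x axis), coloured by cluster, open where not called. Hoxd13 lies lowest at -2.16, and no gene of groups 9 to 13 is called higher in this fit, though Hoxa9 is in 8 of 13 alternatives.

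A second list held 26 other genes often cited as Polycomb targets, mostly developmental transcription factors. Of these 14 were tested, 2 rose and 10 fell, a called share of 85.7% against 61.7% of all tested genes. Over all tested genes 30.8% were higher and 30.9% lower. The median log2 fold change of the list was -0.49. Another 6, among them Pax3 and Pax6, had 0 counts in every library. Cdkn2b, the inhibitor of CDK4 and CDK6 silenced by Polycomb in many cell types, went from 305 ± 4.50 to 97.0 ± 1.69 CPM (SD, n = 3), a fall of 1.65 on the log2 scale (edgeR adjusted p 1.25e-17). Its neighbour Cdkn2a, named after its value was seen, fell by 0.19 (edgeR adjusted p 0.00966), and lost its call with library totals (-0.13) and with the length offset (-0.12). Gata6 and Foxc1, transcription factors of heart and mesenchyme development, fell by 0.75 and 0.70. Meis2, named after its value was seen, rose by 0.45, and this long gene was at 0.14 and not called with the length offset.

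Genes of DNA replication were read beside Ezh2, since E2F factors are known to drive both. Of 29 replication genes, all tested, 8 rose, 10 fell and 11 did not pass, with a median of -0.01. The called share was 62.1%, against 61.7% of all tested genes. Cdt1, Dnmt1 and Tyms, which license, methylate and supply DNA synthesis, fell by 0.97, 0.87 and 0.79. They were named for the smallest p and all fell, while log2 fold changes in the list reached 1.84. Of 16 genes of G2 and mitosis, all tested, 12 rose and 0 fell, a called share of 75% against 61.7% of all tested genes. Top2a was at 1.32, Tpx2 at 1.30 and Plk1 at 1.11. None of the 16 was lower even at an unadjusted p under 0.05 in edgeR or by DESeq2, and their smallest log2 fold change was 0.12. What part cell cycle state has in the PRC2 values was not tested.

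The genes whose pattern over the 6 libraries was most like that of Suz12 were Pon2, Ubn2, Rbmxl1, Sertad2 and Msh6. Suz12 was taken because its absolute change was the largest of the members in the test with all 6 libraries and TMM scaling, but Ezh2 was nearly equal and was ahead in some alternatives, such as the length offset. Likeness was the Euclidean distance between log2 CPM profiles centred on the control mean, among 9080 named genes averaging 10 CPM or more. The distances ran from 0.0652 for Pon2 to 0.0953 for Msh6, and their log2 fold changes from -0.72 to -0.67. With 2 groups of 3 libraries such a distance mostly reflects the size of the group difference.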

How the data were processed

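The table deposited by the authors holds raw counts by gene symbol in 6 libraries, unscaled and unpooled, per the file headers and the values. Per the submitters' processing notes, FastQC 0.11.7, fastp 0.14.1 and STAR 2.5 were used; counting tool, genome build, annotation and strand setting were not given in the sources used here. Per the labels' protocols, libraries were stranded and poly-A selected.

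From the counts, edgeR 4.0.16 in R 4.3.3 kept 14216 genes (minimum count 10, minimum total count 15), scaled by TMM and ran a two-sided quasi-likelihood test (prior count 0.125) on all 6 libraries, with Benjamini-Hochberg adjustment over all tested genes and a threshold of 0.05. An SE is the absolute log2 fold change over the square root of the F statistic. Depth gave 12.9 to 13.8 counts per CPM. The test was checked on simulated counts in which most genes had no change. That setting differs from these data, in which 61.7% of tested genes were called, so the check does not cover it.

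The members and gene lists were chosen with earlier results of these data known. Named genes were the members, Tug1, tested PRC2 partners, 3 genes with the smallest p per other list (called, mean of at least 1 CPM) and the 5 most like Suz12; others, each marked in the text, were named after their values were seen. Alternatives were DESeq2 size factors, library totals, DESeq2 1.42.0's Wald test, no low-count filter, the replicate number as a block, leaving out each library, and a length offset (lowess, span 0.3, genomic spans of RefSeq GRCr8 for 92.0% of tested genes), alone and with the block. Ratios had 0.5 added to each count. For 1 gene counted in a list, neither name nor value is given here.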

Additional observations from a re-analysis of the deposited data

How the results depend on the processing

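The count of changed members was 8, 3 higher and 5 lower, in each of 13 alternatives, and Tug1 ran from -2.22 to -2.07. The length offset, alone or with the replicate block, left 1 of 4 PRC2 partners and 2 of 4 H3K27 demethylases and acetyltransferases called (3 or 4 in the other alternatives), and put Crebbp at -0.0198, or -0.0203 with the block. With the offset 8128 of all 13084 tested genes were called, or 8164 with the block. Without it, in the main test, 61.7% of all tested genes were called. Other named genes, 50 in all, gave 650 combinations of a gene and an alternative: 25, from 8 genes, lost the call, 2 of these (Crebbp) with a change of sign, and 8, all Hoxa9, gained one. The median of the other classic Polycomb targets was -0.31 without the low-count filter, and that of PRC1 -0.09 with library totals. Leaving out 1 library at a time, Phf19 ran from -0.936 to 0.0941 and the change of the log2 Jarid2 to Mtf2 ratio from -0.106 to 0.155, both uncalled; the cause was not tested. Kmt2c was at 0.44 with the length offset against 0.83.

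Deviations of same-numbered libraries from their group means correlated at -0.0053, 0.0298 and 0.027, and not every library was most like the one of its own number. With the replicate block 8848 genes were called instead of 8773, and no member changed its call. Phf19 is limited by depth, at 4 to 16 counts a library.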

Other observations

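The COMPASS family, which methylates H3K4 and is the classic counterpart of Polycomb, was read from 14 names. These include the KDM5 demethylases, which remove H3K4 methylation. All 14 were tested, 8 rose and 4 fell, a called share of 85.7% against 61.7% of all tested genes. The median log2 fold change was 0.25. Every KDM5 gene in the list rose, so count and median mix opposing activities and do not describe the methyltransferases alone. Kdm5b, an H3K4 demethylase, went from 87.7 ± 2.69 to 165 ± 3.05 CPM (SD, n = 3) and rose by 0.92 on the log2 scale (edgeR adjusted p 5.58e-13). Kmt2c, a methyltransferase of enhancers and a long gene, rose by 0.83. Dpy30, a small subunit shared by the COMPASS complexes, fell by 0.77, from 50.5 ± 3.17 to 29.5 ± 1.62 CPM (SD, n = 3).

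Rbbp4 and Rbbp7 also serve in the NuRD, SIN3 and CAF-1 complexes and in a histone acetyltransferase. Of 20 further subunits of those, all tested, 11 rose and 6 fell, a called share of 85% against 61.7% of all tested genes. With the length offset 6 rose and 6 fell. Suds3 of the SIN3 complex rose by 0.79 (edgeR adjusted p 3.24e-11). Chaf1b of the histone chaperone CAF-1 fell by 1.18 (edgeR adjusted p 2.87e-07). Chd5, a remodeller of NuRD best known from neurons and testis, had 3, 1 and 4 counts in controls and 55, 47 and 45 after knockdown. No fold change is given for Chd5, because its control libraries held so few counts.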
